A study of Sus scrofa with 61 samples.

Results

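The genes of the mitochondrial ribosomal proteins were examined in the longissimus muscle of 61 male pig fetuses taken by caesarean at day 90 or day 110 of gestation, in the last weeks before birth. Members were the array probes whose gene name, on the array or in the study's own gene lists, begins with MRPL or MRPS and a digit, and which the scanner software called well above background on 80% or more of a group's arrays. Of 84 probes named in this way, 79 were kept, out of 42436 kept probes in all, and they stand for 57 genes out of 29838 gene names, of which 37 belong to the large subunit of the ribosome, 19 to the small subunit and 1, MRPS36, to neither for certain. For a gene with several kept probes, the one with the highest mean level (the main probe) stands for the gene unless stated otherwise. MRPS12 is a member only through the study's gene lists, which came from tests on these same arrays. It is among the 57 genes counted below, and its calls are no independent result.

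Large White (LW) is a lean and fast-growing breed, and Meishan (MS) is a Chinese breed whose piglets are born more mature. Semen of boars of both breeds was pooled for each insemination, and a sow of either breed could therefore carry purebred fetuses beside crossbred ones. LWMS fetuses had an MS mother and an LW father, and MSLW fetuses had an LW mother and an MS father. The groups at day 90 held 8 LW, 8 MS, 8 LWMS and 8 MSLW fetuses, and those at day 110 held 9 LW, 7 MS, 8 LWMS and 5 MSLW fetuses. No fetus was treated, and no group carried an altered allele. The sow is not among the labels, so littermates count as separate fetuses, p-values measure only the spread between these fetuses, and a difference between maternal genotypes cannot be told apart from one between sows. LW and MS fetuses likewise came from different sows. So did the fetuses of day 90 and day 110, since a litter taken by caesarean is of a single day. The breed and age comparisons thus also hold differences between sows.

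Mitochondria keep their own ribosome, which translates the few messages of mitochondrial DNA into core subunits of the respiratory chain and of ATP synthase. All protein components of this ribosome are encoded in the nucleus, made in the cytosol and imported. Some descend from proteins of the bacterial ribosome, others arose only in mitochondria, and each subunit holds both kinds. Skeletal muscle relies on mitochondria for endurance work and, in a newborn, for warmth.

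Level is given throughout as the normalized log2 intensity of one probe, and a difference of 1 on this scale is a doubling. Levels are never set between probes, since probes differ in how strongly they bind. All tests were made with limma over the 42436 kept probes with Benjamini-Hochberg adjustment, and a difference is called at an adjusted p under 0.01. The 61 arrays lay on 8 slides with 6 to 8 of the groups on each slide, and between 34346 and 45683 probes were well above background per array. Of the markers of skeletal muscle fibre 10 were kept, ACTA1, CKM and TNNC2 among them. Markers of other cell types were kept too, so passing the filter does not test the tissue label.

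The probes are strands of 60 bases, and for 15 of the genes several probes were kept, of which MRPL18 with 6 and MRPL52 with 4 matter most below. For MRPL18, a large-subunit protein with a bacterial homologue, the last 30 bases of 3 overlapping probes are shown 5′ to 3′ because they differ in how far they reach along the message, and capitals mark the bases past the end of the first probe.
A_72_P257197: aagtgtctgagaaaagctgttgctaattaa
A_72_P748391: aagctgttgctaattaaCTTTTGAAAGACA
A_72_P709800: ctaattaaCTTTTGAAAGACATGTTGTTTA
The second probe lies 13 bases and the third 22 bases further along than the first. A further probe, A_72_P711053, has the same 60 bases as the first, and the remaining pair, O13015 and A_72_P737455, shares no stretch of 20 bases with any of these.

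For MRPL52, a large-subunit protein specific to mitochondria, 30 bases of each of 4 probes are shown because they fall into 2 pairs. The pairs share no stretch of 20 bases. Probes were compared only with each other, so whether both pairs read the same message was not tested. The first pair gives the last 30 bases and differs by 1 inserted base, and in the second pair a capital marks the only base that differs, A40T when counted from the 5′ end of A_72_P478148.
A_72_P028026: aaccaagtcaataaaaagcaactcctgtct
A_72_P651862: caaccaagtcaataaaaagcactcctgtct
A_72_P478148: gacccaagccttttAacagcccatatacag
O1715: gacccaagccttttTacagcccatatacag
Both probes of MRPS18C have the same 60 bases, and over the 61 arrays their levels correlated at 0.933, which together with 0.968 for the identical MRPL18 pair describes how closely 1 sequence was measured when spotted at different places.

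The first question was how the genes change between day 90 and day 110. Averaged over the 4 genotypes, 53 of the 57 genes were higher at day 110, 1 was lower (MRPS6) and 3 were not called (MRPL14, MRPL23 and MRPL41). Among all kept probes 37.3% were called higher and 35% lower. The median difference over the members was 0.61, with a lower and an upper quartile of 0.31 and 0.8, against 0.04 over all kept probes. Of the 57 main probes, 55 were well above background on every array and 56 on at least 60. All of these values describe RNA from bulk muscle, in which fewer cells of a type and less RNA per cell cannot be told apart.

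**Figure D1:**
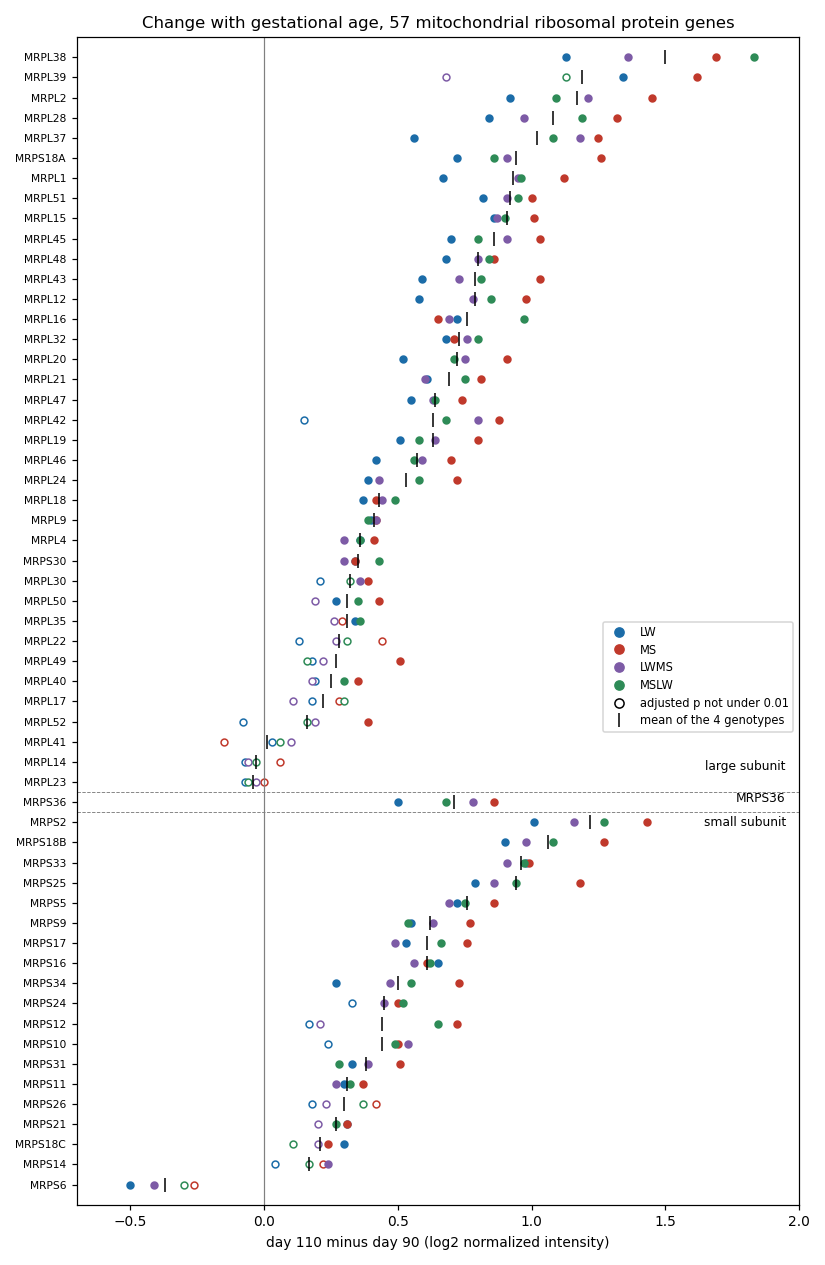
Difference between day 110 and day 90 (x axis, log2 normalized intensity) for each of the 57 genes (y axis), grouped by ribosomal subunit and sorted by the mean of the 4 genotypes (black bar). Filled circles are called at an adjusted p under 0.01 in that genotype, and nearly all circles lie to the right of 0 while those of MRPS6 lie to the left.

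In the large subunit 34 of 37 genes rose and none fell, with a median difference of 0.63, and in the small subunit 18 of 19 rose and 1 fell, with a median of 0.45. By descent, the median was 0.64 for the 22 large-subunit genes with a bacterial homologue and 0.63 for the 15 specific to mitochondria. In the small subunit it was 0.44 for the 14 genes with a bacterial homologue and 0.5 for the 5 specific to mitochondria, all 5 of which rose. MRPS18A and MRPS18B descend from a bacterial protein but hold places of their own in the mitochondrial ribosome, and with them on the other side the medians of the genes specific to mitochondria were 0.71 in the large and 0.72 in the small subunit. MRPS36, now also known as a component of the oxoglutarate dehydrogenase complex, rose by 0.71.

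MRPL38, a large-subunit protein specific to mitochondria, had the largest difference. Its level ran from 7.66 through a median of 7.9 to 8.19 in LW at day 90, and from 8.59 through 9.08 to 9.39 at day 110. In MS it ran from 7.71 through 7.89 to 8.25 at day 90, and from 9.21 through 9.5 to 10 at day 110. In LWMS the lowest, median and highest levels were 7.58, 8.01 and 8.23 at day 90, and 9.15, 9.25 and 9.58 at day 110. In none of these genotypes did the days overlap, nor did they in MSLW. In MSLW at day 90 the range was 4.81 to 8.43 around a median of 7.86, and the 5 MSLW fetuses at day 110 stood at 8.94, 9.06, 9.19, 9.36 and 10. The value of 4.81 belonged to a single fetus, the other 7 being at 7.45 or higher, and the array of that fetus had 36831 probes above background. The averaged rise of MRPL38 was 1.5 ± 0.12 (SE; limma adjusted p = 2.52e-17), a 2.83-fold difference. Without that array the rise within MSLW was 1.45 in place of 1.83, and the averaged rise was 1.41.

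MRPS2, a small-subunit protein with a bacterial homologue, rose by 1.22 ± 0.06 (limma adjusted p = 1.01e-27). In LW its lowest, median and highest levels were 6.66, 6.77 and 7.08 at day 90, and 7.39, 7.78 and 8.31 at day 110. In MS they were 6.9, 7.05 and 7.2 at day 90, and 8.23, 8.45 and 8.83 at day 110. The days did not overlap in any of the 4 genotypes. In MSLW the 8 fetuses of day 90 lay between 6.59 and 7.37, and the 5 of day 110 were at 7.99, 8.1, 8.23, 8.42 and 8.59.

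The other genes among the 10 largest rises were MRPL39, MRPL2, MRPL28, MRPS18B, MRPL37, MRPS33, MRPS25 and MRPS18A. MRPL2, whose bacterial homologue lies beside the peptidyl transferase centre, rose by 1.17 ± 0.05, and MRPL28 rose by 1.08 ± 0.05. MRPL37, specific to mitochondria, rose by 1.02 ± 0.07. MRPS18A and MRPS18B are 2 of the 3 mammalian relatives of a single bacterial protein, the former in the large and the latter in the small subunit, and they rose by 0.94 ± 0.05 and 1.06 ± 0.05. MRPS18C, the third relative, rose by 0.21 ± 0.04. MRPS33 and MRPS25, both specific to mitochondria, rose by 0.96 ± 0.06 and 0.94 ± 0.05. For MRPL39 the fitted difference was 1.19 ± 0.17, but most of its values at day 90 were at background, so that this size and its rank are not a measured fold. Its probe was well above background in 1 of 8 LW, 2 of 8 MS, 2 of 8 LWMS and 1 of 8 MSLW fetuses at day 90, and in 3 of 9, 5 of 7, 5 of 8 and 4 of 5 of these at day 110. This probe passed the filter only through the MSLW group of day 110, and without MRPL39 52 of 56 genes rose, with a median of 0.59.

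MRPS6, a small-subunit protein with a bacterial homologue, was the only gene called lower. In LW its lowest, median and highest levels were 12.47, 12.69 and 13.02 at day 90, and 12.01, 12.21 and 12.47 at day 110. In MS they were 12.48, 12.83 and 13.16 at day 90, and 12.33, 12.57 and 12.74 at day 110. In LWMS they were 12.26, 12.72 and 13.07, then 12.16, 12.32 and 12.43. The LW groups met at a single level and the others overlapped. In MSLW the day 90 fetuses ran from 12.78 to 13.25 and those of day 110 were at 12.34, 12.54, 12.76, 12.84 and 12.85. Averaged over genotypes MRPS6 fell by 0.37 on the log2 scale (SE 0.05, limma adjusted p = 6.93e-10). When arrays were instead scaled to their 75th percentile, the difference was -0.12 with an adjusted p of 0.0183, so that the fall was then not called.

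Of the 3 genes that were not called, MRPL23 showed a difference of -0.04, MRPL14 one of -0.03 and MRPL41 one of 0.01. A second probe of MRPL14, O14234, rose by 0.41, and a second probe of MRPL41, O11969, rose by 0.27. Over the 15 genes with several kept probes, all probes rose in 10. Among these 10 is MRPS18C, whose probes are identical in sequence, so their agreement is not that of different probes. In MRPL35 and MRPL40 the main probe rose and a second, dim probe gave 0.26 and 0.3, neither called.

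In MRPL52 the pairs of probes shown above went in opposite directions. The main probe A_72_P028026 rose by 0.16 and A_72_P651862 by 0.19, while A_72_P478148 fell by 0.43 and O1715 fell by 0.46. Within each pair the levels correlated over the arrays at 0.936 and 0.733, and between the pairs the correlations ran from -0.067 to 0.001. In LW at day 90 the levels of A_72_P478148 ran from 8.39 to 8.91, and at day 110 from 7.95 to 8.34, without overlap. The main probe in LW ran from 11.53 to 12.06 at day 90 and from 11.41 to 11.95 at day 110. With the mean of its 4 probes the averaged difference of MRPL52 was -0.14 with an adjusted p of 0.0133, opposite in sign to that of the main probe.

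The age change was then tested within each genotype. In LW 41 genes were called higher at day 110 and 1 lower, against 21.8% and 23.5% of all kept probes. In MS 48 were higher and none lower, against 28.6% and 28.1%, and 53 members (93%) had an unadjusted p under 0.05 in either direction, as had 68.3% of all kept probes. In LWMS 41 were higher and 1 lower, against 25.1% and 25.7%, and in MSLW 44 were higher and none lower, against 20.8% and 23.8%, with 47 members (82.5%) and 59.4% of all kept probes at an unadjusted p under 0.05. The gene called lower in LW and in LWMS was MRPS6, which differed by -0.26 in MS and -0.3 in MSLW. The median difference of the members was smallest in LW (0.42) and largest in MS (0.72), with LWMS at 0.56 and MSLW at 0.58, while that of all kept probes was between 0.02 and 0.04.

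Other large rises within a genotype were those of MRPL15 (0.86), MRPL51 (0.82) and MRPL16 (0.72) in LW, and of MRPL1 (1.12), MRPL43 and MRPL45 (1.03 each) in MS. In LWMS they were those of MRPL42 (0.8), MRPL48 (0.8) and MRPL12 (0.78), the last of which also binds the mitochondrial RNA polymerase. In MSLW they were those of MRPL32 (0.8), MRPS5 (0.75) and MRPL21 (0.75). The levels of the 2 days did not overlap, with day 110 higher, for 21 LW genes and 38 MS genes, against 10.4% and 18.6% of all kept probes, and for 33 genes in each cross, against 14.1% for LWMS and 12.4% for MSLW. The 38 MS genes include MRPL39, whose probe was above background in only 2 of 8 MS fetuses at day 90. Its lack of overlap is therefore no measured fold. No member was lower without overlap in any genotype, while 12.9% (LW), 19.3% (MS), 16.3% (LWMS) and 15.6% (MSLW) of all kept probes were.

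**Figure D2:**
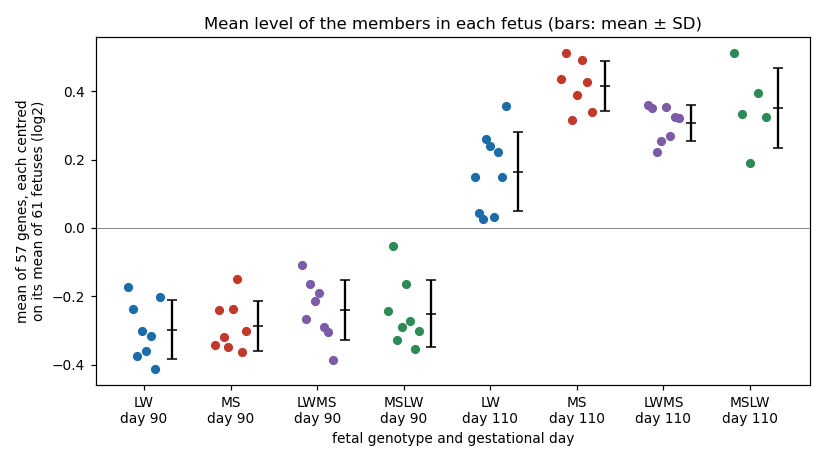
Mean over the 57 genes in each fetus (y axis, log2), each gene first centred on its mean of all 61 fetuses, by genotype and day (x axis), with the group mean ± SD in black. All fetuses of day 90 lie below all fetuses of day 110, and at day 110 the LW fetuses reach the lowest values.

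Averaged over the members after centring each gene, the fetuses of day 90 stood between -0.41 and -0.05 and those of day 110 between 0.03 and 0.51. At day 90 the group means were -0.3 ± 0.09 for LW and -0.29 ± 0.07 for MS, and -0.24 ± 0.09 for LWMS and -0.25 ± 0.1 for MSLW (SD, n = 8 each). At day 110 they were 0.16 ± 0.12 in LW (n = 9), 0.42 ± 0.07 in MS (n = 7), 0.31 ± 0.05 in LWMS (n = 8) and 0.35 ± 0.12 in MSLW (n = 5). The LW fetuses of day 110 ran from 0.03 to 0.36 and the MS fetuses from 0.32 to 0.51, so that these groups met only at their ends. Within single slides, the median age difference of the members was between 0.46 and 0.65 on the 8 slides, with 53 to 55 of the 57 genes positive.

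Markers of cell types were read too, against 37.3% of all kept probes called higher and 35% called lower at day 110. All 7 fibroblast markers fell, collagen genes such as COL1A1 and COL3A1 among them, and their mean level ran from 13.66 to 14.1 over the fetuses of day 90 and from 12 to 13.02 over those of day 110. Of the 7 markers of dividing cells 6 fell and MKI67 rose by 0.41, and the mean level of all 7 went from 10.7 to 11.29 down to 7 to 9.51. Of 10 muscle fibre markers 6 rose and 2 fell. In the endothelial list 4 of 7 fell and 1 rose, and in the macrophage list 3 of 5 fell and none rose. The adipocyte and the erythroid list, of 6 genes each, both had 2 that rose and 3 that fell. Beside the shares over all kept probes, such mixed counts in short lists do not set these lists apart. All of these markers passed the filter on dim probes. The part of these markers in the rise of the members was not tested.

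The second question was how MS and LW fetuses differ at each day. At day 90 6 genes were higher in MS and 3 lower, against 6.23% and 6.61% of all kept probes, and the median difference of the members was 0.06 against 0 over all kept probes. At day 110 28 genes were higher in MS and 2 lower, against 13.7% and 15.2%, and the median was 0.28 against 0.01 over all kept probes. The sign was positive for 33 of 57 genes at day 90 and for 50 of 57 at day 110. All 19 small-subunit genes were higher in mean in MS at day 110, 11 of them called. Of the 37 large-subunit genes 16 were called higher and 2 lower.

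**Figure D3:**
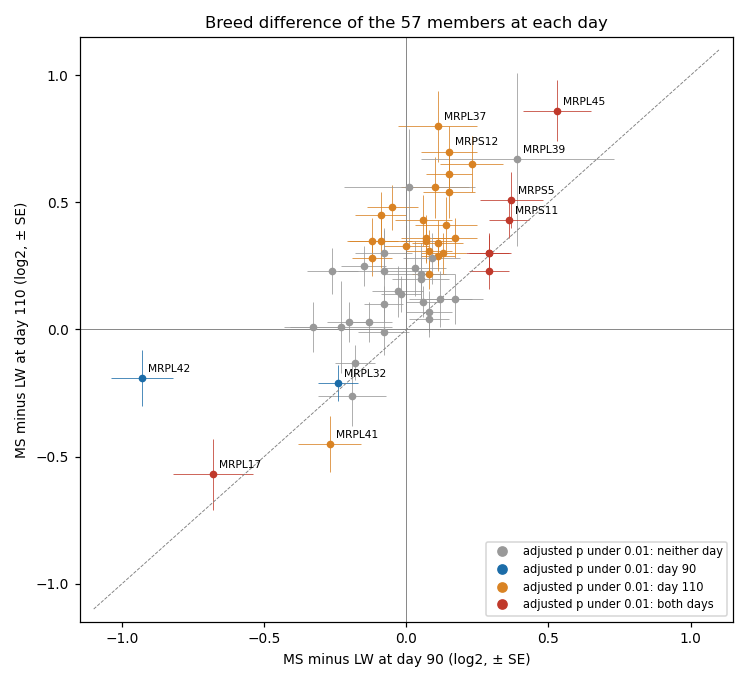
MS minus LW for the 57 genes at day 90 (x axis) and at day 110 (y axis), as log2 differences with SE bars, coloured by the days at which the difference was called. Most genes cluster near 0 on the x axis and above 0 on the y axis, MRPL45 is high on both axes, MRPL17 low on both, and MRPL42 low at day 90 only.

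MRPL45, a protein at the exit of the tunnel that helps hold the ribosome to the inner membrane, was higher in MS at both days. In LW its lowest, median and highest levels were 10.67, 10.77 and 11.47 at day 90, and 11.08, 11.62 and 12.07 at day 110. In MS they were 11.23, 11.38 and 11.55 at day 90, and 12.19, 12.33 and 12.74 at day 110. The breeds overlapped at day 90 and did not overlap at day 110. The difference was 0.53 ± 0.12 (limma adjusted p = 0.00062) at day 90 and 0.86 ± 0.12 (limma adjusted p = 4.38e-08) at day 110. In the crosses of day 110 MRPL45 lay between the parents, with 11.87, 12.17 and 12.4 in LWMS and with single values of 11.81, 11.85, 11.94, 12.12 and 12.4 in MSLW.

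MRPL37 was 0.8 ± 0.14 higher in MS at day 110 and 0.11 ± 0.14 at day 90, where it was not called. Its levels at day 110 had their lowest, median and highest at 9.53, 9.88 and 11.03 in LW, and at 10.34, 10.79 and 11.16 in MS. The value of 11.03 came from 1 LW fetus, the next highest being at 10.25. Apart from that fetus, the LW levels were all below those of MS.

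The other large differences toward MS at day 110 were those of MRPS12 (0.7 ± 0.1), MRPS2 (0.65 ± 0.11), MRPS34 (0.61 ± 0.08), MRPL1 (0.56 ± 0.12), MRPS25 (0.54 ± 0.1) and MRPS5 (0.51 ± 0.11). MRPL1 is the homologue of the bacterial stalk protein beside the exit site, and MRPS34 is specific to mitochondria. MRPS34, MRPS12, MRPL2, MRPL9, MRPL45 and MRPS11 had no overlap between the breeds at day 110, that is 6 genes, against 3.77% of all kept probes. MRPS12 is a member only through the study's gene lists, so its difference and its place among these 6 are no independent result. At day 90 only MRPS18C was higher in MS without overlap, against 3.09%.

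The genes called higher in MS at day 90, apart from MRPL45, included MRPS5 (0.37 ± 0.11), MRPS11 (0.36 ± 0.07), MRPS18C and MRPS30 (0.29 ± 0.07 and 0.29 ± 0.08), and all 4 were again called at day 110. MRPS30, despite its name, is a protein of the large subunit. Of the genes lower at day 90, MRPL32 differed by -0.24 ± 0.07, and at day 110 by -0.21 ± 0.07, not called.

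MRPL17, whose bacterial homologue lies near the end of the exit tunnel, was lower in MS at both days. At day 90 its lowest, median and highest levels were 12.04, 12.44 and 12.88 in LW and 11.41, 11.69 and 12.21 in MS. At day 110 they were 12.33, 12.61 and 12.97 in LW and 11.53, 12.09 and 12.7 in MS. The breeds overlapped at both days. The difference was -0.68 ± 0.14 (limma adjusted p = 0.000148) at day 90 and -0.57 ± 0.14 (limma adjusted p = 0.000674) at day 110.

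MRPL42, specific to mitochondria, was far lower in MS at day 90 and close to LW at day 110. At day 90 its lowest, median and highest levels were 12.27, 12.61 and 12.92 in LW and 11.41, 11.73 and 11.81 in MS, without overlap, and it was the only member lower without overlap against 3.65% of all kept probes. At day 110 they were 12.3, 12.9 and 13.17 in LW and 12.36, 12.57 and 12.76 in MS, the latter within the range of the former. The difference was -0.93 ± 0.11 (limma adjusted p = 2.69e-09) at day 90 and -0.19 ± 0.11 at day 110. In LWMS the levels were 12.02, 12.3 and 12.43 at day 90 and 12.91, 13.04 and 13.32 at day 110, and in MSLW they ran from 11.7 to 12.39 at day 90 and stood at 12.41, 12.68, 12.8, 12.96 and 12.97 at day 110. At day 90 both crosses thus lay between the breeds in mean.

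MRPL41 was lower in MS at day 110 by its main probe, with levels of 14.04 to 14.31 in LW and 13.54 to 13.82 in MS and no overlap (4.5% of all kept probes were lower without overlap). The difference was -0.45 ± 0.11, and with the 75th percentile scaling it was -0.28 with an adjusted p of 0.0524. The second probe, O11969, gave 0.18, which was not called, so the breed difference of MRPL41 rests on 1 of its 2 probes. Of the 57 genes 42 have only 1 kept probe, MRPL45, MRPL37, MRPS12, MRPS2, MRPS34, MRPL1, MRPS25, MRPS5, MRPL17 and MRPL42 among them. The breed differences of these genes likewise rest on 1 probe.

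MRPL18 gave different answers by probe. In the stretches shown above, the probe that ends first, A_72_P257197, differed between MS and LW by -0.18 at day 90 and -0.13 at day 110, not called, and its identical copy by -0.13 and -0.12. The probe reaching 13 bases further, A_72_P748391, differed by -0.73 and -0.74, both called. The probe reaching 22 bases further, A_72_P709800, differed by -0.99 and -1.05, both called. Of the probes that share no stretch with these, O13015 gave -0.26 and -0.09, and A_72_P737455 gave 0.07 and 0.28, none called.

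For A_72_P709800 the levels at day 110 lay between 12.85 and 13.53 among LW fetuses and between 11.91 and 12.51 among MS fetuses, without overlap. The LWMS fetuses ran from 12.64 to 13.36 and the MSLW fetuses from 12.71 to 13.5, between the breeds in mean. All 6 probes rose with age, by 0.43 to 0.73 averaged over genotypes, so that the probes of MRPL18 were alike in their direction with age and unlike in the breed difference. The first probe is the main probe and gives the values of MRPL18 elsewhere in the text. With the slide as a block MRPL18 by its main probe and MRPL24 were also called lower in MS at day 90.

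**Figure D4:**
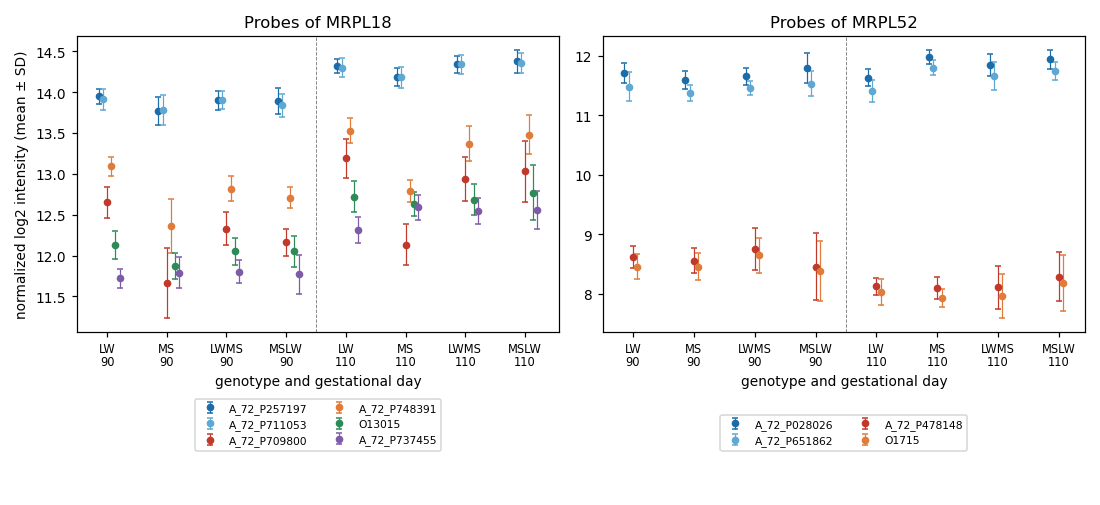
Normalized log2 intensity (y axis, mean ± SD over fetuses) of the 6 probes of MRPL18 (left) and the 4 probes of MRPL52 (right) in the 8 groups (x axis, genotype and day). A_72_P709800 and A_72_P748391 of MRPL18 are lower in MS than in LW at both days by 0.73 or more, and in MRPL52 the lower pair falls from day 90 to day 110.

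Within single slides that held both breeds at day 110, the median difference of the members was between 0.18 and 0.39 on 6 slides, with 43 to 49 genes positive. At day 90 it was between -0.07 and 0.19 on 8 slides. Cell type markers differed between the breeds as well: at day 110 5 of the 7 fibroblast markers were lower in MS and 1 higher, and their mean level ran from 12 to 12.25 in MS and from 12.51 to 13.02 in LW. Of the 7 markers of dividing cells 6 were lower in MS, with mean levels of 7 to 8.4 in MS and 7.72 to 9.06 in LW. Of the 10 muscle fibre markers 3 were higher and none lower, with mean levels of 17.05 to 17.19 in MS and 16.77 to 16.96 in LW. Among all kept probes 13.7% were called higher and 15.2% lower in MS at day 110. The part of these markers in the breed difference was not tested.

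The third question was whether the change with age differs between MS and LW, tested as the interaction. It was more positive in MS for 8 genes and more negative for none, against 2.56% and 3.39% of all kept probes. At an unadjusted p under 0.05 there were 23 members (40.4%), against 27.9% of all kept probes. The 8 genes were MRPL42 (0.74 ± 0.16), MRPS12 (0.56 ± 0.15), MRPS18A (0.54 ± 0.13), MRPL2 (0.53 ± 0.13), MRPL28 (0.48 ± 0.13), MRPL52 (0.47 ± 0.12), MRPS34 (0.46 ± 0.11) and MRPL20 (0.4 ± 0.1). The estimate was positive for 51 of the 57 genes, with a median of 0.23, against 49.5% of all kept probes and a median of 0. This test uses the same fetuses as the breed and age comparisons above. MRPS12 is a member only through the study's gene lists, which came from tests on these same arrays, so its call is no independent result. Of the 7 fibroblast markers 5 had a more negative age change in MS, as had 3 of the 7 markers of dividing cells, and their part in the result was not tested.

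These calls came close to the threshold for several genes. With the median signal, with the deposited values and with the normexp background correction, 3 were called, MRPL2, MRPL42 and MRPS18A, and with LW and MS fitted alone 4 were called, MRPL42, MRPL52, MRPS18A and MRPS34. Scaling to the 75th percentile gave 10, but it also moved the share of higher among all interaction calls from 43% to 63.7%. For MRPL2 a second probe, A_72_P432134, that shares no stretch with the first, gave 0.56 against 0.53, also called, and the levels of both correlated at 0.995 over the arrays.

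MRPL2 in LW had its lowest, median and highest levels at 11.42, 11.63 and 11.82 on day 90 and at 12.2, 12.58 and 12.76 on day 110. In MS they were 11.22, 11.57 and 11.94 on day 90, then 12.82, 13.02 and 13.22. The breeds overlapped widely at day 90 and did not overlap at day 110. In the crosses of day 110 the levels ran from 12.64 to 13 in LWMS and from 12.5 to 13.04 in MSLW. MRPS18A in MS went from 10.44, 10.57 and 10.73 to 11.57, 11.78 and 12.09, and in LW from 10.42, 10.65 and 10.88 to 11.25, 11.34 and 11.7.

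The fourth question concerned the crosses. No member differed between MSLW and LWMS, at day 90 or at day 110, by limma, and only 0.5% and 0.912% of all kept probes did. With shares this low, here and for the mid-parent value below, the lack of a called member does not set the members apart. At an unadjusted p under 0.05 there were 3 and 5 members (5.26% and 8.77%), against 9.55% and 15% of all kept probes. No member departed from the mid-parent value either, against 0.0495% and 0.0778% of all kept probes, with 2 and 7 members (3.51% and 12.3%) at an unadjusted p under 0.05, against 3.63% and 7.02%. The differences between the crosses ran from -0.48 to 0.24 at day 90 and from -0.31 to 0.36 at day 110. The differences from the mid-parent value had a median of 0.04 at both days. For the 30 genes called between MS and LW at day 110, the mean of LWMS lay between the parental means in 30 and that of MSLW in 29. These genes were chosen for the gap between the same parental means, which by itself favours a place between them. The share over all kept probes was not computed, so the count is no result about the members.

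In a model of age, maternal and paternal genotype with their pairwise interactions, the age change depended on the paternal genotype for 1 member, MRPS12, and on the maternal genotype for none. Among all kept probes 0.462% and 3.05% did. At an unadjusted p under 0.05 there were 17 and 9 members (29.8% and 15.8%), against 14.1% and 22.6% of all kept probes. The sow cannot be told apart from the maternal genotype in this model. MRPS12 is a member only through the study's gene lists, which came from tests of age and genotype on these same arrays. Its calls are therefore no independent result. MRPS12 is the homologue of the bacterial decoding-centre protein in which resistance to streptomycin arises. Its age change was 0.5 ± 0.11 larger with an MS father (limma adjusted p = 0.00469), and in the groups of day 110 with an LW father the lowest, median and highest levels were 9.39, 10.04 and 10.24 in LW and 9.98, 10.26 and 10.43 in LWMS. With an MS father they were 10.36, 10.62 and 10.9 in MS, and 10.38, 10.54, 10.56, 10.62 and 10.65 in the single MSLW fetuses. At day 90 all 4 groups lay between 9.38 and 10.33 and overlapped. The call on MRPS12 was lost with the median signal (0.42, adjusted p = 0.0292), with the deposited values (0.43, adjusted p = 0.0284) and with normexp (0.42, adjusted p = 0.0204).

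A moderated F test over the 8 groups with Bonferroni correction passed 42 of the 57 members, against 44.9% of all kept probes.

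Other genes of mitochondrial translation were read from lists. Of 5 subunits of the same ribosome that carry other names 4 rose with age, PTCD3 (1.23), GADD45GIP1 (1.13), DAP3 (1.04) and ICT1 (1.03), and CHCHD1 gave 0.05. Of 11 translation factors 7 rose and none fell, among them TACO1 (1.34), an activator of cytochrome oxidase translation, and the elongation factor TUFM (1.14). MTRF1 (0.76) and GUF1 (0.69) followed. Of 18 genes of ribosome assembly and rRNA modification 13 rose and none fell, with a median of 0.35 and the largest rises in MRM1 (1.06), MTG1 (0.69), TRUB2 (0.65) and MTERFD1 (0.59). Of 14 mitochondrial aminoacyl-tRNA synthetases and related enzymes 12 rose and 2 fell, with a median of 0.61, the largest rises being FARS2 (1.05), LARS2 (1.02), QRSL1 (0.97) and MARS2 (0.92). TARS2 fell by 0.39 and CARS2 fell by 0.21.

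Of 6 genes of mitochondrial transcription and message stability 5 rose, LRPPRC (1.32), C17ORF42 (1.3), SUPV3L1 (0.8) and the packaging and transcription factor TFAM (0.45) among them. Of 14 genes taken as a measure of mitochondrial content 12 rose and 1 fell, with a median of 0.9, led by the import protein TIMM44 (1.8), CYCS (1.44), HSPA9 (1.43) and citrate synthase, CS (1.34). Of 76 nuclear-encoded subunits of the respiratory chain 69 rose and 3 fell, with a median of 0.94, against 0.61 over the mitochondrial ribosomal proteins. UQCRFS1 (1.98), COX7A1 (1.91), NDUFV1 (1.82) and NDUFA10 (1.58) rose most, and COX6A1, the subunit form of non-muscle tissues, fell by 0.89. Of 65 cytosolic ribosomal proteins 8 rose and 52 fell, with a median of -0.33, RPL3 (-0.68) and RPL19 (-0.54) among them and RPS2 (0.77) and RPL17 (0.69) on the other side. Genes of the cytosolic ribosome have many near-identical copies in the genome, so their probes can share signal.

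**Figure D5:**
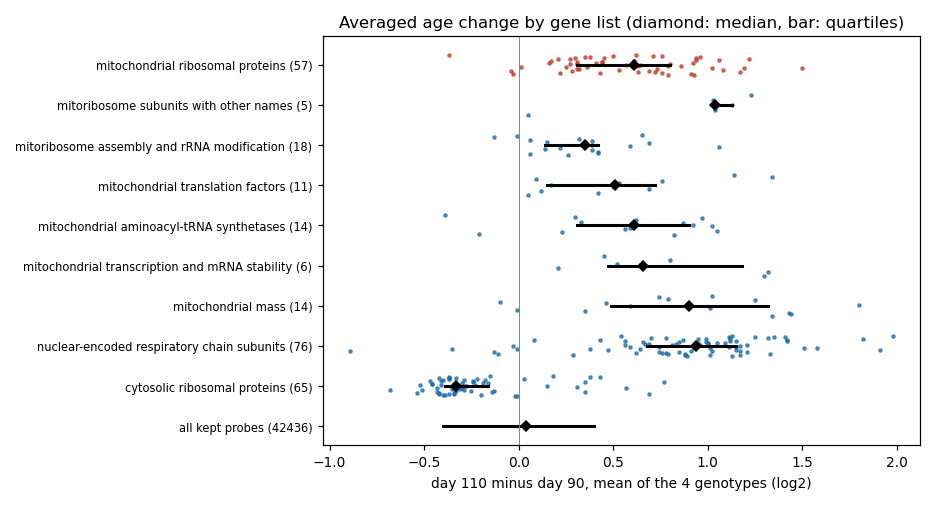
Difference between day 110 and day 90 averaged over the 4 genotypes (x axis, log2) for the genes of each list (y axis, number of genes in brackets), 1 dot a gene, with the median as a diamond and the quartiles as a bar. Every mitochondrial list has its median above 0, that of the respiratory chain subunits lies further right than that of the mitochondrial ribosomal proteins, and that of the cytosolic ribosomal proteins lies left of 0.

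Between MS and LW at day 110, 45 of the 76 respiratory chain subunits were higher in MS and 3 lower, with a median of 0.29 that lies beside the 0.28 of the members. Of the 65 cytosolic ribosomal proteins 3 were higher and 28 lower, with a median of -0.16. Of the 5 subunits of the same ribosome with other names none was called higher in MS and CHCHD1 was lower (-0.26, limma adjusted p = 0.00102), with values of 0.38 for GADD45GIP1, 0.28 for DAP3, 0.23 for ICT1 and -0.04 for PTCD3. Of the 11 translation factors 4 were higher and 1 lower, of the 14 synthetases 3 and 1, and of the 6 transcription and message stability genes 3 and none. The assembly and rRNA modification genes gave 1 of 18 higher in MS with a median of 0.12, and the mitochondrial content genes 8 of 14 higher and 1 lower with a median of 0.36. At day 90 the medians of all these lists were between -0.05 and 0.13. The interaction was called for 5 of the 76 respiratory chain subunits, all more positive in MS, and for 4 cytosolic ribosomal proteins, all more negative.

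The array holds 11 further probes whose description, but not name, is that of a mitochondrial ribosomal protein, and 9 of them passed the filter. Of these 8 rose with age and none fell, with a median of 0.75 and a range of -0.07 to 0.97. Between MS and LW at day 110, 2 of the 9 were higher and none lower, with a median of 0.17 and a range of -0.1 to 1.18.

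Dim probes stood on both sides of the filter. MRPL39, just inside, was above background on 23 arrays. Outside were a probe of MRPL47 (18 arrays) and the only probe of MRPL13 (15 arrays). Their best groups were MS at day 110 with 4 of 7 arrays and LWMS at day 90 with 3 of 8. Further out were probes of MRPL4 (4 arrays), MRPS35 and MRPS9 (1 array each). MRPL47, MRPL4 and MRPS9 have another, bright probe that was kept, and MRPL13 and MRPS35 are thus the only genes of the 59 named by the rule without a value here.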

How the data were processed

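RNA of 61 muscle samples was hybridised to 1-colour Agilent arrays, and the authors deposited scanner files made with Agilent Feature Extraction 10.10.1.1, per the labels' processing notes. The unit taken from these deposited files was the processed intensity of each spot, which the scanner software had already corrected for background. Non-uniform spots were set to missing, control spots were left out, and the intensities were quantile normalized and put on the log2 scale. Of 60305 probes, 42436 were kept, which the software called well above background on 80% or more of a group's arrays. The authors also deposited normalized log2 values of 44368 spots, in which 2351 values were missing, and these served as an alternative (lowest correlation with an array's own scanner values 0.9862).

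The 8 groups, taken from the labels, were fitted together with limma 3.58.1 in R 4.3.3 with Benjamini-Hochberg adjustment over all kept probes and a threshold of 1%, together with an F test with Bonferroni correction and a model of age, maternal and paternal genotype with pairwise interactions. The study's random effect of the sow was left out because the labels do not give the sow. The fit was tested on simulated data. Alternatives were the median signal, normexp with an offset of 50, scaling to the 75th percentile, no filter or a stricter one on dim probes, the slide as a block, non-uniform spots not removed, the mean of a gene's probes, LW and MS alone, and each MSLW fetus of day 110 left out. Leaving out MSLW replicate 2 or MS replicate 3 of day 90 was chosen after seeing the data.

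The members and the gene lists were chosen with earlier results of these data known. The genes named were, among those past the threshold, the 10 largest averaged age changes each way, the 3 largest in each genotype not yet named, the 8 and 5 largest breed differences each way at day 110 and day 90, the 6 largest interactions each way, and up to 5 in the crosses and the parental model. To these came the members in the study's gene lists, those with probes in opposite directions, the 3 smallest age changes, up to 4 genes of each further list, and members outside the filter. MRPL9, MRPL18, MRPL20, MRPL24, MRPL35, MRPL40, MRPS34 in the interaction, MRPS18C with age, MRPS36, TFAM, RPL17, GADD45GIP1, DAP3, ICT1, PTCD3 and CHCHD1 between the breeds, and the markers were named after their values were seen. No promoter or protein sequences were used here, so the planned motif search was not run.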

Additional observations from a re-analysis of the deposited data

Results flagged for a closer look

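Single fetuses stood apart from their group for 4 gene and group pairs, out of 72 groups tested over 8 genes and the members' mean, and chance gives about 1 in 20. MRPL38 was at 4.81 in MSLW replicate 2 of day 90 (n = 8), with the nearest fetus at 7.45. MRPS2 was at 7.73 in LWMS replicate 8 of day 110 (n = 8), with the nearest at 8.2. MRPL37 was at 11.03 in LW replicate 9 of day 110 (n = 9), with the nearest at 10.25. MRPL45 was at 11.65 in LWMS replicate 1 of day 90 (n = 8), with the nearest at 11.32.

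The change with age differed between MS and LW by limma's interaction test for MRPL42 (0.74), MRPS12 (0.56), MRPS18A (0.54), MRPL2 (0.53), MRPL28 (0.48), MRPL52 (0.47), MRPS34 (0.46) and MRPL20 (0.4). For MRPS12, a member only through the study's gene lists, it also differed with the paternal genotype, by 0.5. Among the other probes of MRPL52 the value was 0.49 for A_72_P651862 (adjusted p = 0.00823) and 0.04 and -0.1 for A_72_P478148 and O1715, neither called, and the difference between probes was not tested.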

How the results depend on the processing

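Of 812 values of the named genes over 17 settings, 772 kept their direction and their call, 39 kept their direction and lost the call, and 1 reversed: MRPL52 with age, at -0.14 with the mean of each gene's probes. Each setting that left out an MSLW fetus of day 110 kept all 49 values. Values of comparisons without that group could hardly change there, so the 772 include agreements that were nearly fixed. The count of genes higher at day 110 averaged over genotypes ran from 51 to 55, and that of genes higher in MS than LW at day 110 from 25 to 35. With 75th percentile scaling 3 genes in place of 6 were higher in MS at day 90, 1 in place of 2 was lower in MS at day 110, and 0 fell with age averaged or in LWMS. This scaling moved the share of higher among all calls of the interaction from 43% to 63.7%, of age by maternal genotype from 38.1% to 51.3% and of age by paternal genotype from 29.6% to 46.3%. The interaction of age and breed was called for 3 genes with the median signal, normexp or the deposited values, for 5 without the filter and for 4 with LW and MS alone. With the slide as a block 5 genes were lower in MS at day 90, and MRPS6 fell in MS and in MSLW (1 gene each), as it did in MS with LW and MS alone. Age by maternal genotype was called for 1 gene with the slide as a block (MRPL2), with normexp and with probes above background on every array (MRPL42 both times), and age by paternal genotype for 0 with the median signal, normexp or the deposited values. In each case the cause was not tested. Leaving out MSLW fetuses of day 110 in turn gave 0 to 1 genes lower with age in MSLW (MRPS6 without replicate 1 or 3) and 0 to 1 with age by maternal genotype (MRPL42 without replicate 1, 2 or 4). Without MS replicate 3 of day 90, the interaction was called for 6 genes. The F test was not run with LW and MS alone, and the promoter motif search was not run. No paired analysis was possible because the labels give no replicate numbers that groups share, and the slide is the only block that could be fitted. The number of arrays limits the precision, and MRPL39 was at the limit of detection.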
